A study of Mus musculus with 10 samples.

Results

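The 9 genes described here make and load MHC class I molecules in mouse skin: the light chain gene B2m, the heavy chain genes H2-D1 and H2-K1, the peptide transport and loading genes Tap1, Tap2 and Tapbp, and the immunoproteasome genes Psmb8, Psmb9 and Psmb10. They were chosen by gene symbol, and 17 probes of the array carried one of these symbols in the platform annotation. All 9 were measured in all 8 skin samples, among 19532 genes with a probe and 13501 genes that could be tested. Skin was taken from Tsk2 mice at 4 months of age (4 samples) and from Tsk2 mice at 1 month of age (4 samples). Tsk2 is a tight-skin mutation used as a mouse model of scleroderma, and the series design writes the genotype as Tsk2/+, while the sample titles call the mice transgenic. Neither group had a treatment in the labels, and strain and sex are not stated there. No wild-type skin entered the comparison, so both groups carry the mutation and a difference between them is one of age within the mutant. Each array compared skin RNA in Cy3 with a reference RNA named UMR in Cy5. The 4-month sample 2 and the 1-month sample 1 were each run on 2 arrays, which were averaged.

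MHC class I molecules display peptides from inside the cell to CD8 T cells and to natural killer cells, and nearly every nucleated cell carries them. Proteins are cut by the proteasome, whose catalytic subunits can be exchanged for immunoproteasome subunits; the peptides are pumped into the endoplasmic reticulum by the transporter made of Tap1 and Tap2, and tapasin, the product of Tapbp, holds the empty class I molecule at that transporter. Interferon-gamma is the best known inducer of all these genes, through the transcription factor Irf1 and the class I transactivator Nlrc5.

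Promoter sequence of 5 of these genes is shown. The results below set H2-D1 beside H2-K1 and Tap1 beside Psmb9, and the product of B2m pairs with the heavy chains. Each window of 300 bases spans a gene's start and is read 5′ to 3′ on the gene's own strand, from RefSeq on GRCm38.p6. The table held 9 windows for 8 of the 9 genes, and Tap2 is named only. In the first 3 windows capitals mark matches to an interferon response element and to a kB motif. In B2m (chr2:122147437-122147736, + strand) these are the ISRE core GAAANNGAAA and, downstream of it, the kB motif. In H2-D1 (chr17:35262844-35263143, + strand) and H2-K1 (chr17:34000298-34000597, - strand) they are a kB motif, matched at 2 overlapping places, and an IRF half-site, AANNGAAA, read on the other strand.
B2m: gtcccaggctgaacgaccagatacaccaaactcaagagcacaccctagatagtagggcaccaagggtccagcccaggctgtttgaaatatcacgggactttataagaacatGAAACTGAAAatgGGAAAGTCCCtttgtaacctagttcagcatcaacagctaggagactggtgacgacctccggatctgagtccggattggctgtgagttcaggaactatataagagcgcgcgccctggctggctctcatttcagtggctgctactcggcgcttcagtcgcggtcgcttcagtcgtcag
H2-D1: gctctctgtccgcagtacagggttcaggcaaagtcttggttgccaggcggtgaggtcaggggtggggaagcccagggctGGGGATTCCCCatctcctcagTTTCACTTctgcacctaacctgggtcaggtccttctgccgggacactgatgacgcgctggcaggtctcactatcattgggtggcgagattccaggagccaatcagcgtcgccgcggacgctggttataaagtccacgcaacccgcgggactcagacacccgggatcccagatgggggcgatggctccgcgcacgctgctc
H2-K1: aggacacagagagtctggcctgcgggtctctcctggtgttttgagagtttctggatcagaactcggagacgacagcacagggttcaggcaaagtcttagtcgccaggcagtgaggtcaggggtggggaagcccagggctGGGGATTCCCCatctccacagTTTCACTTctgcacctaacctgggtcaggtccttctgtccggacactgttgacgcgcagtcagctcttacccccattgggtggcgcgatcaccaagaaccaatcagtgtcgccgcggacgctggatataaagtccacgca

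The H2-K1 and H2-D1 windows were identical at 206 of 228 aligned bases (90.4%). Tap1 and Psmb9 lie head to head on chromosome 17, so that their windows share 275 bases (chr17:34187306-34187580, shown on the + strand, which is that of Tap1). The capitals in this stretch mark its CCAAT box.
Tap1 and Psmb9: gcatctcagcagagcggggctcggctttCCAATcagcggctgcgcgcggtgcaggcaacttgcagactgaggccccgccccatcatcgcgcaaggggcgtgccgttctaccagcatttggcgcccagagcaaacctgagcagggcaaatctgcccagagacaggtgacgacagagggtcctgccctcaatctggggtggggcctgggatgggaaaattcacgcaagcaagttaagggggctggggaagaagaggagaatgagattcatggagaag

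Both strands were searched in all 32851 mouse promoter windows of the table. An IRF half-site occurred in 23.9% of them, the ISRE core, which contains an IRF half-site, in 3.44%, a kB motif in 8.46%, a CCAAT box in 37.4% and a GAS motif, TTCNNNGAA, in 8.30%. None of the half-site, ISRE core, GAS and kB letters were found in the Tap1, Tapbp, Psmb9 and Psmb10 windows, and the Psmb8 window held 1 GAS match. These matches describe the letters of the windows and not binding.

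All values below are log2 ratios of skin over reference RNA. The deposited files do not name the numerator or the base of the logarithm. The sign was turned so that markers of keratinocytes (array medians of 3.69 to 5.76) and of skeletal muscle (4.68 to 7.32) lie above 0 on all 10 arrays, while B cell markers (-4.38 to -0.32) and cell division genes (-3.09 to -0.21) lie below 0 on all 10. That direction is likely, not certain, and with the other one every value and every difference below would change sign. Ratios of different genes depend on the reference RNA and on the probe, so levels are compared between samples of a gene and not between genes. In a bulk tissue, more cells of a type and more RNA per cell cannot be told apart. Of all 13501 genes, 979 passed the test between ages (7.25%; limma with Benjamini-Hochberg adjustment, adjusted p under 0.05), and 566 of them (4.19%) were higher and 413 (3.06%) lower at 4 months, shares that would trade places with the other direction. An unadjusted p under 0.05 was far commoner: 3279 genes had one (24.3%), 1783 higher (13.2%) and 1496 lower (11.1%), and counts at that level are to be read against these shares. No ID number in the sample titles occurred at both ages, so age cannot be told apart from other differences between the 3 numbers of the 4-month samples and the 2 numbers of the 1-month samples.

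Tap2 was the 1 gene of the 9 that passed the test, and it was higher at 4 months. None was lower, and 4 of the 9 had an unadjusted p under 0.05 in the limma fit, all of them higher, beside 24.3% of all genes in either direction and 13.2% higher. The fitted difference between ages, 4 months minus 1 month, lay above 0 for all 9 genes, from 0.32 in Psmb10 to 1.12 in Tap2, with a median of 0.72, beside a median of 0.03 over all genes tested. In Tap2, Tapbp and H2-K1 every 4-month sample lay above every 1-month sample, a pattern that 10.9% of all genes tested showed. For Tapbp and H2-K1 this held for the mean over probes, while single probes of each overlapped between ages. The opposite pattern, every 4-month sample below every 1-month sample, was shown by 10.2% of them and would be the one to set beside these 3 genes if the direction were the other one. The fit weighs samples that share an ID number, so a fitted difference can depart slightly from the difference of the 2 means.

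**Figure D1:**
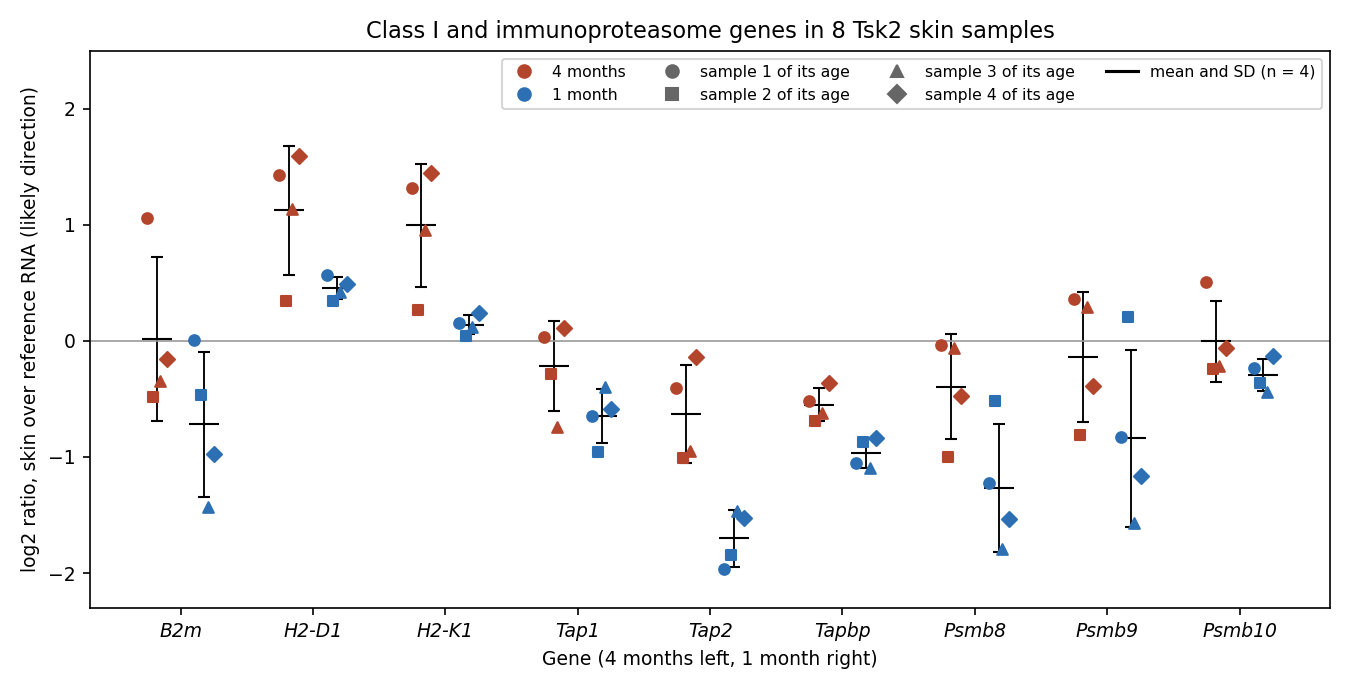
Log2 ratio of skin over reference RNA (vertical axis) for the 9 genes in each skin sample, with 4-month samples in red to the left of 1-month samples in blue, symbols for sample numbers, and bars for the mean and SD of 4 samples. In these means over the probes of a gene, the ages do not overlap in H2-K1, Tap2 and Tapbp. The 4-month sample 2 (square) is the lowest 4-month sample in 8 of the 9 genes.

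H2-K1 encodes a classical heavy chain, the part of the class I molecule that forms the peptide groove. Its log2 ratio was 1.32, 0.27, 0.96 and 1.45 in the 4-month samples, against 0.15, 0.04, 0.12 and 0.24 in the 1-month samples. The 1-month samples lay close together, and the 4-month samples were spread widely, with sample 2 only just above them. The mean was 1.00 ± 0.53 at 4 months and 0.14 ± 0.08 at 1 month (SD, n = 4 each). The fitted difference of 0.91 ± 0.30 (SE), or 1.88-fold, had an adjusted p of 0.0992 in the limma fit and so did not pass. Without 4-month sample 2 the difference was 1.10 and passed (adjusted p = 0.0411, limma). Over the 19 settings tried the adjusted p ran from 0.0411 to 0.250, and that was the 1 setting in which H2-K1 passed.

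H2-D1, the other classical heavy chain gene measured, followed the same order among the 4-month samples. Its log2 ratio was 1.43, 0.34, 1.14 and 1.59 at 4 months, against 0.57, 0.34, 0.42 and 0.49 at 1 month. Sample 2 of each age held the same value, so the ages overlapped there, while the other 4-month samples lay above all 1-month samples. The mean was 1.13 ± 0.56 at 4 months and 0.46 ± 0.10 at 1 month (SD, n = 4 each). The fitted difference was 0.72 ± 0.31 (SE, limma adjusted p = 0.196). Heavy chain genes are related in sequence, and the oligo sequences of their probes were not analysed here. The share of another heavy chain gene in the signal of H2-K1 or H2-D1 is therefore uncertain.

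B2m encodes the light chain, beta-2 microglobulin, without which heavy chains do not reach the cell surface stably. Its log2 ratio was 1.06, -0.48, -0.35 and -0.16 at 4 months, against 0.01, -0.47, -1.43 and -0.98 at 1 month. The ages overlapped, with 1-month sample 1 above 3 of the 4-month samples. The fitted difference of 0.79 ± 0.43 (SE) had a limma adjusted p of 0.302, and its size depended on single samples: leaving out 4-month sample 1 gave 0.41, and leaving out 1-month sample 3 gave 0.51.

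The 3 probes of B2m did not give one size of difference. The 2 probes to NM_009735 differed between ages by 0.44 and 0.40, and the probe to AK086184 by 1.52 (unadjusted p = 0.0173, adjusted p = 0.124 over all probes, limma). On the AK086184 probe the 4-month samples read 2.14, 1.18, 0.42 and 1.03, against 0.81, -0.23, -1.36 and -0.36 in the 1-month samples. That probe was also the least repeatable of the 17: its repeat arrays differed by 1.21 in 4-month sample 2 and by 1.18 in 1-month sample 1, where the median size over the 17 probes was 0.175 and 0.290.

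The 4 probes of H2-K1 gave similar differences, 1.00, 1.04, 0.81 and 0.76, but fell into pairs in 1-month sample 2. The pair of A_51 probes read 0.57 and 0.67 there, the highest 1-month values of each, and the pair of A_52 probes read -0.65 and -0.41, the lowest. The mean over the 4 probes in that sample lay beside the other 1-month samples, so the small 1-month spread of the gene belongs to that mean. On the A_52 probes the 1-month samples ran from -0.65 to 0.34 and from -0.41 to 0.405, and the ages overlapped. They overlapped on 1 A_51 probe too, with 0.60 in 4-month sample 2 against 0.67 in 1-month sample 2. One A_51 probe held an exact 0, read as not measured, on 1 of the 2 arrays of 1-month sample 1. The 2 probes of H2-D1 differed by 0.74 and 0.69 and stood in one order among the 4-month samples. The 2 probes of Tapbp gave 0.64 and 0.22. All 17 probes had a difference above 0, and the probe of Tap2 was the 1 of them that passed, as did 1235 of all 21103 probes tested (limma, adjusted over all probes).

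**Figure D2:**
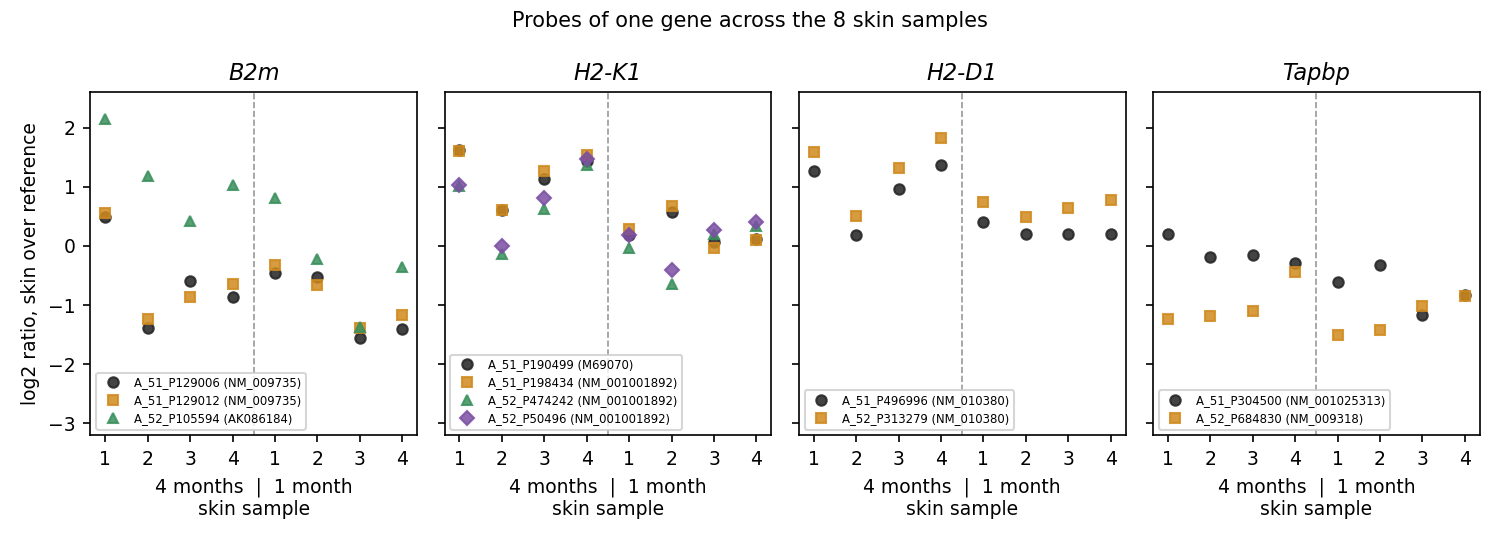
Log2 ratio of each probe (vertical axis) in the 4-month samples and then the 1-month samples (horizontal axis), for B2m, H2-K1, H2-D1 and Tapbp; each symbol is a probe, named with its target accession. The 4-month minus 1-month difference is 1.52 for the AK086184 probe of B2m and 0.44 and 0.40 for the other 2, and the H2-K1 probes part into pairs in 1-month sample 2 (0.57 and 0.67 against -0.65 and -0.41).

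Tap2 is a subunit of the peptide transporter. Its log2 ratio was -0.40, -1.01, -0.95 and -0.14 in the 4-month samples, against -1.97, -1.85, -1.47 and -1.53 in the 1-month samples. The ages did not overlap, and the lowest 4-month sample lay well above the highest 1-month sample. Tap2 averaged -0.63 ± 0.42 at 4 months and -1.70 ± 0.24 at 1 month (SD, n = 4 each). It rose by 1.12 ± 0.27 (SE; 95% interval 0.52 to 1.73), or 2.18-fold, with a limma adjusted p of 0.0381. The value rests on 1 probe, and the call held in 10 of 19 settings, with adjusted p between 0.0187 and 0.150 and a difference between 0.94 and 1.31 in all of them. With 1 sample fewer (any of 1-month samples 1, 2 and 4 or 4-month samples 1, 2 and 3), the call was lost and the adjusted p was 0.0509 to 0.122, with differences of 1.05 to 1.20.

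Tap1, the partner subunit of Tap2, had a log2 ratio of 0.04, -0.29, -0.74 and 0.11 at 4 months, against -0.65, -0.95, -0.39 and -0.59 at 1 month. The ages overlapped through 4-month sample 3, which lay below 3 of the 1-month samples. The fitted difference was 0.47 ± 0.27 (SE, limma adjusted p = 0.333).

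Tapbp had -0.52, -0.69, -0.62 and -0.36 at 4 months, against -1.06, -0.87, -1.10 and -0.84 at 1 month. In this mean over 2 probes the ages did not overlap, by a narrow margin. On the probe with the smaller difference (0.22) they did overlap. There the 4-month samples ran from -1.24 to -0.44 and the 1-month samples from -1.51 to -0.845. For the gene, the fitted difference of 0.43 ± 0.21 (SE) did not pass (limma adjusted p = 0.235).

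Psmb8 encodes the immunoproteasome subunit that replaces Psmb5. Its log2 ratio was -0.04, -1.0005, -0.06 and -0.48 in the 4-month samples, against -1.22, -0.52, -1.80 and -1.53 in the 1-month samples. Sample 2 of each age went against the rest: 4-month sample 2 lay below 1-month sample 2. The fitted difference was 0.89 ± 0.38 (SE, limma adjusted p = 0.182).

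Psmb9, which replaces Psmb6, had 0.36, -0.81, 0.29 and -0.39 at 4 months, against -0.83, 0.21, -1.57 and -1.16 at 1 month. The samples of each age stood in the same order as in Psmb8, and 1-month sample 2 lay above 2 of the 4-month samples. Its fitted difference of 0.72 ± 0.47 (SE) had a limma adjusted p of 0.395, and was 0.47 without 1-month sample 3.

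Psmb10, which replaces Psmb7 and lies on chromosome 8 away from the others, had the smallest fitted difference of the 9. Its log2 ratio was 0.51, -0.24, -0.21 and -0.06 at 4 months, against -0.23, -0.36, -0.44 and -0.13 at 1 month. The ages overlapped, and 4-month sample 1 alone lay above 0. The fitted difference was 0.32 ± 0.25 (SE, limma adjusted p = 0.478), and 0.13 without 4-month sample 1.

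Psmb9, Tap1, Psmb8 and Tap2 are neighbours on chromosome 17, in that order, between the class II genes H2-DMb1 and H2-Ob, and they did not share one pattern across samples. At 1 month, Psmb9 was highest in sample 2 (0.21) and lowest in sample 3 (-1.57), whereas Tap1 was lowest in sample 2 (-0.95) and highest in sample 3 (-0.39). The start regions of these 2 genes share the 275 bases printed above. Split by ID number, 1-month samples 1 and 2 lay wholly above samples 3 and 4 in B2m (by 0.98 in the mean), Psmb8 (0.80) and Psmb9 (1.05), and wholly below them in Tap1 (-0.31) and Tap2 (-0.41). The other 4 genes overlapped. Of 12815 genes with all 4 values at 1 month, 48.6% were separated in this way, so 5 of 9 is near the share over all genes. Among the 4-month samples, sample 2 was lowest in 8 of the 9 genes, and the highest was sample 4 in 5 genes and sample 1 in 4. The mean over the 9 genes was 0.42, -0.43, -0.06 and 0.17 at 4 months, against -0.58, -0.49, -0.85 and -0.67 at 1 month, so that 4-month sample 2 stood only a little above the highest 1-month sample.

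Each immunoproteasome subunit was then set against the constitutive subunit it replaces. The constitutive genes did not pass the test. Psmb5 had 0.83, 1.01, 0.49 and 0.58 at 4 months, against 1.12, 0.28, 0.79 and 0.70 at 1 month, and a fitted difference near 0 (adjusted p = 0.997, limma). Psmb6 had 0.29, 0.51, 1.04 and 0.42 at 4 months, against 0.10, 0.69, 0.44 and 0.36 at 1 month (difference 0.14, adjusted p = 0.809, limma). Psmb7 had 0.85, 0.51, 0.32 and 0.02 at 4 months, against 0.86, 0.10, 0.89 and 0.84 at 1 month (difference -0.25, adjusted p = 0.680, limma). In all 3 the ages overlapped.

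The difference of the 2 log2 ratios in a sample was compared between ages for 3 pairs, with a two-sided exact permutation test that cannot go below p = 0.0286. Unlike the limma fit, this test treated samples that share an ID number as independent, so its p-values may be too small. Psmb8 minus Psmb5 averaged -1.12 ± 0.63 at 4 months and -1.99 ± 0.81 at 1 month (SD, n = 4 each), a change of 0.87 (exact p = 0.143, 0.214 adjusted over the 3 pairs). Psmb9 minus Psmb6 averaged -0.70 ± 0.58 at 4 months and -1.24 ± 0.67 at 1 month (SD, n = 4 each), a change of 0.53 (exact p = 0.286, adjusted 0.286). Psmb10 minus Psmb7 averaged -0.43 ± 0.28 at 4 months and -0.96 ± 0.37 at 1 month (SD, n = 4 each), a change of 0.54 (exact p = 0.0857, adjusted 0.214). None of the 3 passed and in each the ages overlapped, with 1-month sample 2 the highest 1-month sample and 4-month sample 2 the lowest 4-month sample. Only the change between ages can be read from these values, since the level of such a difference depends on the probes and on the reference RNA.

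**Figure D3:**
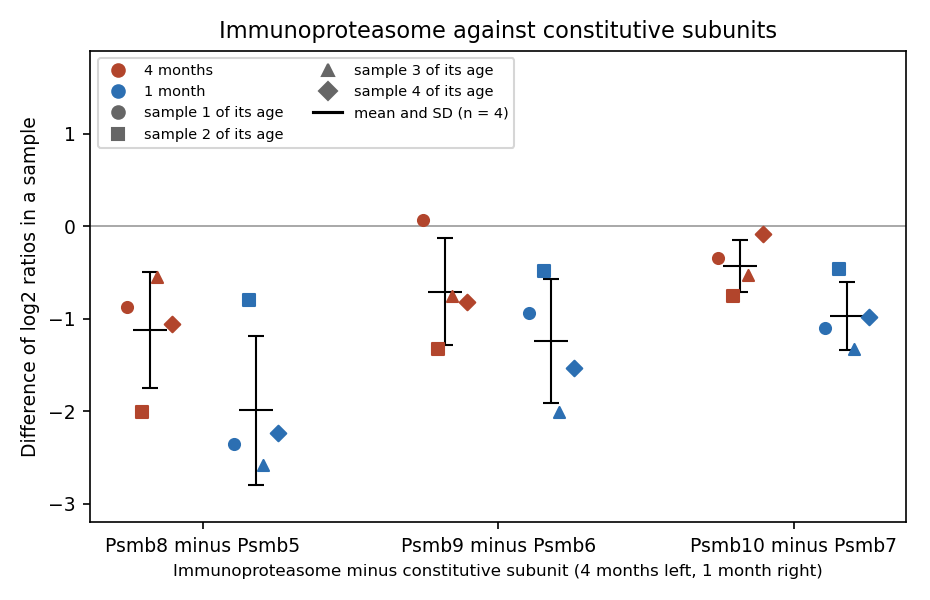
Difference of log2 ratios (vertical axis) between each immunoproteasome subunit and the constitutive subunit it replaces, for 4-month samples (red, left) and 1-month samples (blue, right), with bars for the mean and SD of 4 samples. The means are -1.12 against -1.99, -0.70 against -1.24 and -0.43 against -0.96, and the ages overlap in every pair.

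Most genes of the rest of the core particle lay below 0. Of 11 other core subunits tested, 0 passed in the limma fit and 0 had an unadjusted p under 0.05; 9 lay below 0, with a median of -0.38 and a range of -0.50 to 0.37. Among 6 genes of proteasome activators and assembly, 1 was higher and 0 were lower, with a median of 0.14. The one that passed was Psme3, which encodes an activator of the nuclear proteasome and is not one of the interferon-inducible activator genes. Psme3 had 2.07, 2.62, 2.604 and 1.42 at 4 months, against 0.31, 0.00, -0.06 and 0.05 at 1 month. The ages were far apart, and the 1-month samples lay close to the reference. It rose by 2.04 ± 0.31 (SE), or 4.12-fold, with a limma adjusted p of 0.00916, on 1 probe, and the call held in 18 of 19 settings. The interferon-inducible activator genes Psme1 (difference 0.13, adjusted p = 0.845, limma) and Psme2 (0.11, adjusted p = 0.843), named here after their values were seen, did not pass.

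Other class I and class I-like heavy chain genes had a median difference near that of the 9. Of 28 listed, 23 had a probe and 15 could be tested, and 1 was higher and 0 were lower. All 15 had a difference above 0. An unadjusted p under 0.05 in the limma fit was found for 9, beside 24.3% of all genes in either direction and 13.2% higher. Each of these was an H2 gene. The class I-like genes Cd1d1 (0.28), Mr1 (0.40), Hfe (0.61) and Fcgrt did not reach that level. The median was 0.76. The range ran from 0.27 in Fcgrt, the Fc receptor that recycles antibody and pairs with B2m, to 1.43 in H2-Q8. H2-Q8, a heavy chain gene of the Q region, had 2.88, 2.94, 2.49 and 2.75 at 4 months, against 1.27, 1.97, 1.13 and 1.01 at 1 month. The ages did not overlap, and 4-month sample 2 was the highest, unlike in the 9 genes. H2-Q8 rose by 1.43 ± 0.29 (SE), or 2.69-fold, with a limma adjusted p of 0.0210, on 1 probe, and the call held in 15 of 19 settings. Without 1-month sample 1 its adjusted p was 0.105, and without 4-month sample 1 it was 0.0530. The share of other heavy chain genes in the signal of this probe, and of the other H2 genes listed, is uncertain too. The H2 genes may therefore not be separate observations.

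Other peptide loading and trimming genes lay on both sides of 0, with 2 above and 4 below. Those below were Calr (-0.48), Canx (-0.38), Tpp2 (-0.11) and Pdia3, and those above were Erap1 (0.04) and Tapbpl. Of 6 peptide loading and trimming genes tested, 0 passed and 2 had an unadjusted p under 0.05 in the limma fit, near the share of 24.3% over all genes, with a median of -0.24. Without 4-month sample 4, 1 of them passed. The lowest was Pdia3 (-0.74, adjusted p = 0.172), the disulfide isomerase of the loading complex, and the highest was Tapbpl (0.69, adjusted p = 0.131), a tapasin relative that edits peptides.

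**Figure D4:**
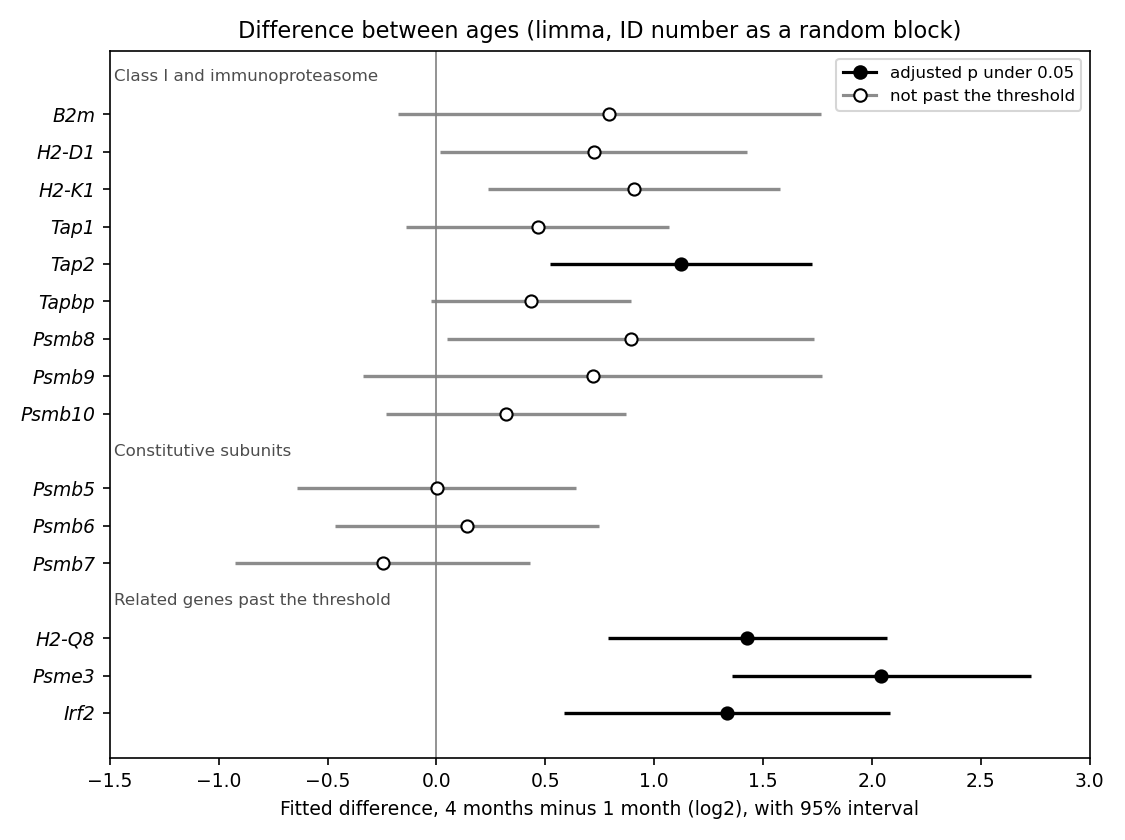
Fitted difference, 4 months minus 1 month, on the log2 scale (horizontal axis) with its 95% interval for the 9 genes, the 3 constitutive subunits and the 3 related genes that passed; filled points have an adjusted p under 0.05. All 9 genes lie to the right of 0 (0.32 to 1.12), 1 of them filled, and the constitutive subunits lie around 0 (-0.25 to 0.14).

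Of 11 regulators of class I transcription that could be tested, 1 was higher and 0 were lower, with a median of 0.27 and a range of -0.51 in Creb1 to 1.33 in Irf2. The 3 probes of Creb1 differed: 1 was lower by itself (-0.98, adjusted p = 0.0434 over all probes, limma), against -0.19 and -0.34 for the others, which did not pass. Irf2 encodes a factor that binds the same DNA element as Irf1 and was first described as its antagonist. Irf2 had 0.72, 1.00, 0.62 and 0.26 at 4 months, against -1.03, -0.05, -1.10 and -0.64 at 1 month. The ages did not overlap, and 1-month sample 2 lay nearest to the 4-month samples. It rose by 1.33 ± 0.33 (SE, limma adjusted p = 0.0428) on 1 probe, a call that held in 10 of 19 settings. Leaving out 1-month sample 1 or any 4-month sample from 1 to 3 ended it, with adjusted p between 0.0854 and 0.180.

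Irf1, the activator of class I genes downstream of interferon-gamma, had -0.32, -0.91, -0.74 and -0.60 at 4 months, against -1.10, -0.76, -1.16 and -1.19 at 1 month. The ages overlapped in sample 2 of each age alone, and the difference of 0.43 did not pass (adjusted p = 0.290, limma). Nlrc5, the class I transactivator, was measured in 3 samples of each age, at 0.43, -0.39 and 1.49 at 4 months, against 0.28, 0.28 and 0.29 at 1 month (difference 0.22, adjusted p = 0.8287, limma). Its 4-month samples fell on both sides of the 1-month samples.

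Among 9 interferon ligand, receptor and receptor kinase genes, 0 passed and 4 had an unadjusted p under 0.05 in the limma fit (24.3% of all genes did). All 4 were higher (13.2% of all genes were higher at that level), and the median of the 9 was 0.30. The count of 0 was not stable: 4 passed without 4-month sample 4, 1 without 4-month sample 2, and 2 without the ID block. The lowest was Ifnar1 (-0.29), a chain of the type I interferon receptor, and the highest Ifngr1, the ligand-binding chain of the interferon-gamma receptor. Ifngr1 had 1.67, 1.19, 2.05 and 1.72 at 4 months, against 0.30, 0.88, 0.48 and 0.72 at 1 month. The ages did not overlap, and the difference of 1.07 ± 0.29 (SE), on 1 probe, missed the threshold (adjusted p = 0.0591, limma). Of 13 interferon-gamma target genes outside the class I pathway, 0 passed and 4 had an unadjusted p under 0.05 in the limma fit. All 4 were higher, beside 24.3% of all genes in either direction and 13.2% higher. The median was 0.60, from -0.34 in the GTPase gene Tgtp1 to 1.14 in Irgm2, another interferon-induced GTPase. Socs1, a feedback inhibitor of interferon signalling, stood on both of these lists. The mean of the targets per sample was 1.54, 0.10, 0.52 and 0.27 at 4 months, against 0.37, 0.54, -0.47 and 0.04 at 1 month. The ages overlapped, with 4-month sample 1 far above the other samples and 4-month sample 2 below 2 of the 1-month samples.

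Markers of immune cells were read beside these values. Of 10 macrophage markers tested, 0 passed and 9 had a difference above 0, with a median of 1.02. An unadjusted p under 0.05 in the limma fit was found for 5, all higher, beside 24.3% of all genes in either direction and 13.2% higher. Over the 6 measured in every sample, the mean was 1.44, 0.72, 1.97 and 1.53 at 4 months, against -0.05, 0.45, 0.75 and 0.80 at 1 month. As in the 9 genes, 4-month sample 2 was the lowest of its age, here below the highest 1-month samples. Of 5 T cell markers tested, 0 passed and 0 had an unadjusted p under 0.05, with a median of 0.12. Of 9 natural killer and cytotoxic markers none could be tested, and Klrd1 and Gzmb were listed at 0 in all samples. Dendritic cell markers (4 tested, median 0.13) and endothelial markers (6 tested, median 0.36) did not pass in the limma fit, with 0 and 2 genes at an unadjusted p under 0.05. Of 6 hair matrix markers 3 were lower and none was higher in the limma fit at an adjusted p under 0.05. Of all genes, 3.06% were lower at that threshold. The sample means of the 6 markers were 0.67 to 2.12 at 4 months, against 3.47 to 3.95 at 1 month. Cell division genes were lower at the same threshold in 8 of 9 cases, with sample means of -3.08 to -1.97 at 4 months, against -1.01 to -0.51 at 1 month. The part of any of these cell types in the differences of the 9 genes was not tested.

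The genes whose pattern over the 8 samples was nearest to the mean pattern of the 9 were sought among 12397 genes measured in all samples, each centred on its own mean. By root-mean-square difference on the log2 scale these were Cysltr1 (0.0782), a leukotriene receptor gene, Hsf2 (0.103), a heat shock transcription factor gene, Samhd1 (0.120), a nucleotide hydrolase gene, H2-K2 (0.127), and Coro1a (0.146), an actin regulator gene of leukocytes. None of the 5 passed the test between ages, with limma adjusted p between 0.0943 for Samhd1 and 0.205 for Coro1a. The share of H2-K1 or H2-D1 in the signal of H2-K2, another H2 gene, is uncertain. The 9 genes themselves ranked from 25 for H2-D1 to 2710 for Psmb9 in the same list, with H2-K1 at 34, Tapbp at 62 and Psmb10 at 97. Profiles were centred but not scaled, so a gene of wider spread ranks lower even where its shape is alike, and the mean contains the 9 genes themselves. Among the 9, the heavy chains lay nearest to the mean by this measure. Psmb9 and B2m, which ranked 1784, lay farthest.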

How the data were processed

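Skin RNA of 8 Tsk2 samples was measured on 10 arrays of 2 colours. The authors deposited 1 table of 41174 probes, whose values are log2 ratios of the 2 dyes; base 2 is likely, because the largest size on an array, 8.60 to 11.165, exceeded the log10 of a 16-bit scanner's maximum (4.82) on every array and the highest exceeded its natural log (11.0903). Background correction, normalization and image software are not stated in the labels or file. Exact zeros, 26.1% to 47.4% of an array, were read as not measured, which left 21665 to 30425 values per array with medians of -0.07 to 0.12 after turning the sign. The values are not counts of molecules, and what limits their precision was not tested.

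Probes were named from the platform annotation: 32664 had 1 symbol, 45 several and 8465 none, and those with 1 symbol were used (32524 matched RefSeq, which changed 0 symbols). Probes of a gene were averaged, with an additive probe and sample fit where values were missing, and genes with under 3 measured samples at either age were left out. Ages were compared with limma 3.58.1 (lmFit, eBayes) in R 4.3.3 with statmod 1.5.0, with the ID number of the sample titles as a random block (duplicateCorrelation, consensus 0.313), because samples of 1 number may share an animal or litter. P-values were adjusted over all 13501 genes by the Benjamini-Hochberg method at a threshold of 0.05. The labels do not say whether each sample is a different animal. The p-values therefore reflect the spread of the samples, some of which may be technical.

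The 9 genes, the gene lists and the marker lists were chosen with earlier results of these data known. Named genes were the 9, the constitutive counterparts of the immunoproteasome subunits, Nlrc5 and Irf1, every gene of the related lists past the threshold, or otherwise the largest and smallest difference of a list, and the 5 genes nearest in pattern. The promoter motifs and the test of subunit pairs were chosen after the values were seen. Alternatives were no block, means per ID number, zeros kept, quantile normalization, centring, other filters, single probes, first arrays, an ID suffix term and each sample left out.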

Additional observations from a re-analysis of the deposited data

Results flagged for a closer look

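Psmb7, the constitutive counterpart of Psmb10, had a log2 ratio of 0.098 in 1-month sample 2, against 0.84 to 0.89 in the other 1-month samples. The gap to the nearest of them was 0.938 of the whole range of that age, which is past Dixon's critical value for 4 samples. It was the 1 such value among 32 groups of 4 tested, where chance gives about 1 in 20. The same sample was the highest 1-month sample in the Psmb10 minus Psmb7 difference (-0.46), although its Psmb10 value (-0.36) lay among the other 1-month values.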

How the results depend on the processing

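All 9 genes kept a difference above 0 in all 19 settings fitted per gene, the chosen one included, and none was lower in any. The median of the 9 lay between 0.51 (1-month sample 3 left out) and 0.93 (4-month sample 2 left out), and the median of all genes moved by less than 0.1. The count of the 9 that were higher, 1 as reported, was 0 with means per ID number (2 against 3; 4 of the 9 at an unadjusted p under 0.05, limma; Tap2 adjusted p = 0.150), with zeros kept (4; 0.0555) and with the ID suffix as a replicate block (4; 0.0659), and 0 to 1 with a sample left out. The left-out samples that gave 0 were 1-month samples 1, 2 and 4 and 4-month samples 1 and 3 (2 to 4 genes at an unadjusted p under 0.05). Leaving out 4-month sample 2 gave H2-K1 in place of Tap2. Genes called over the whole table, 979 as reported with 566 higher, numbered 2022 with 1113 higher without the ID block, 0 and 0 with means per ID number (2530 at an unadjusted p under 0.05) and 581 with 349 higher with the replicate block. With zeros kept 337 were higher. With a sample left out they numbered 157 to 2172, with 102 to 1215 higher: leaving out 1-month sample 1 gave 157, the 4-month samples 1, 2, 3 and 4 gave 473, 504, 496 and 2172 in turn. Samples of the same suffix did not deviate together in every pair (r from -0.23 to 0.48, median 0.06, 8 pairs). Pairs of different suffix had r from -0.25 to 0.22, with a median of -0.13 (8 pairs). Whether the suffix marks a shared condition cannot be told from these few pairs. The interferon ligand and receptor list, 0 as reported, had 1 to 4 genes past the threshold in 7 of 18 alternatives (4 without 4-month sample 4, 2 without the ID block, 1 in the other 5). Irf2 lost its call in 9 of 18 alternatives, H2-Q8 in 4 and Psme3 in 1, means per ID number (adjusted p = 0.0952). Leaving out both 1-month sample 2 and 4-month sample 3, which stood apart on the second principal component of these data in an earlier analysis, needed a fit without the ID block, in which 1223 genes passed. The cause of these changes was not tested. Signal over background is not in the deposited table, so its limit on these ratios is unknown.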
